A study of Mus musculus with 3 samples.

Results

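The genes described here carry a long-chain fatty acid from the blood to its activated form in the liver cell. They were taken from a fixed list of 10 gene symbols, and every probe set annotated with 1 of them was kept separately. The array held 12 probe sets for 9 of the 10 genes, out of 8251 genes that had a probe set with a single symbol. No probe set used here was paired with Acsl1. The genes code for the membrane receptor Cd36, the transport proteins Slc27a2 and Slc27a5, the binding proteins Fabp1, Fabp2, Fabp4 and Fabp5, the acyl-CoA synthetase Acsl4 and the acyl-CoA binding protein Dbi.

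Liver RNA came from male mice in which both copies of the apolipoprotein E gene were knocked out, on a C57BL/6JxOLA129 background, the control group included. Mice aged 3 months were put on 1 of 3 diets for 12 weeks, 10 on a control diet with 1.0% linoleic acid by weight, 10 on one with the same amount of c9,t11-CLA and 9 on one with t10,c12-CLA. CLA, conjugated linoleic acid, is the name for isomers of linoleic acid with conjugated double bonds, and these isomers differ in where those bonds lie and in which is cis and which trans. Fat gave 30% of the energy of these semi-purified diets in the design text, whereas the sample labels speak of a western diet. Each diet was represented by 1 array, and the sources used here do not state whether its RNA came from 1 mouse or a pool. No difference below therefore has a replicate check, a test or an interval, and precision is limited by having so few arrays.

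As background, fatty acids cross the hepatocyte membrane with the help of CD36 and the fatty acid transport proteins, the SLC27 family. Inside the cell the small fatty acid binding proteins, the FABP family, hold them in solution, acyl-CoA synthetases join them to coenzyme A, and DBI binds the acyl-CoA that results. Many of these genes are targets of PPARA, a nuclear receptor that fatty acids activate and that binds, with RXRA, to pairs of AGGTCA hexamers spaced by 1 base. Fabp1 is the classical liver gene of this kind.

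The start regions of Fabp1, Fabp2 and Dbi are shown as examples picked with their signals in view. On c9,t11-CLA Fabp1 was close to its control signal, and Fabp2 and Dbi were well below theirs. Fabp5 and Slc27a5 were lower there as well, with log2 differences of -0.93 and -0.77, but had no window. With this choice, no link between letters and signals can be read from the windows shown. Windows from 250 bases before to 50 after an annotated start came from RefSeq on build GRCm38.p6 and cover 7 of the 10 genes in 9 windows. Dbi has a further, overlapping window at chr1:120121047-120121346, which is not shown and holds no match. The windows shown are chr6:71199629-71199928 on the plus strand for Fabp1, chr3:122894822-122895121 on the plus strand for Fabp2 and chr1:120120870-120121169 on the minus strand for Dbi. Each is written 5′ to 3′ along the gene, and capitals mark matches to the hexamer on either strand and to the repeat described next.
Fabp1: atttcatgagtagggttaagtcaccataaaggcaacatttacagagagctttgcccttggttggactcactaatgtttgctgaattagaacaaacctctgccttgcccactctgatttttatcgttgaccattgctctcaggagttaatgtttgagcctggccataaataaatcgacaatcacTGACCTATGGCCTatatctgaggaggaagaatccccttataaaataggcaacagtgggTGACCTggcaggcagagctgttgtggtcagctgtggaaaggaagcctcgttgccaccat
Fabp2: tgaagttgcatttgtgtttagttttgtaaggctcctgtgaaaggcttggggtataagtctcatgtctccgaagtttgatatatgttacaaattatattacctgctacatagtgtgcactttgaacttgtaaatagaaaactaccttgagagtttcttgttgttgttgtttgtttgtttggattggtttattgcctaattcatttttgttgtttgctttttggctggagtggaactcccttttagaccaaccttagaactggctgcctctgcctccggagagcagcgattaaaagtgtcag
Dbi: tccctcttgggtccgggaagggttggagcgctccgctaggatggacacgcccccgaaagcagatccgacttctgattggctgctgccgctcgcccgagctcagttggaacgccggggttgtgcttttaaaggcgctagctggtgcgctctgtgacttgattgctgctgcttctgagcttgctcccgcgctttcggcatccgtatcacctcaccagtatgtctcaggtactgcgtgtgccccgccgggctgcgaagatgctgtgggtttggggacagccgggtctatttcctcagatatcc

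Both strands were searched for the hexamer AGGTCA and for the repeat AGGTCANAGGTCA, which contains it. The hexamer was in 3 of the 9 windows, those of Fabp1, Slc27a2 and Cd36, beside 16.3% of all 32851 windows of this length. Fabp1 held 2 hexamers, both on the minus strand, the first of them 67 to 62 bases before the start and the other 9 to 4 bases before it. The first lay within TGACCTATGGCCT, which on the other strand reads AGGCCATAGGTCA and differs from the repeat in 1 of its 12 fixed letters. A repeat with at most 1 letter different was in 0.554% of all windows and an exact one in 0.0396%. Slc27a2 had its hexamer 220 to 215 bases before the start and Cd36 228 to 223 bases before it. In the windows of Fabp2, Dbi, Acsl1 and Acsl4 these letters were not found, and there was no window for Fabp4, Fabp5 or Slc27a5. A match is a run of letters, not a measured site of binding.

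**Figure D1:**
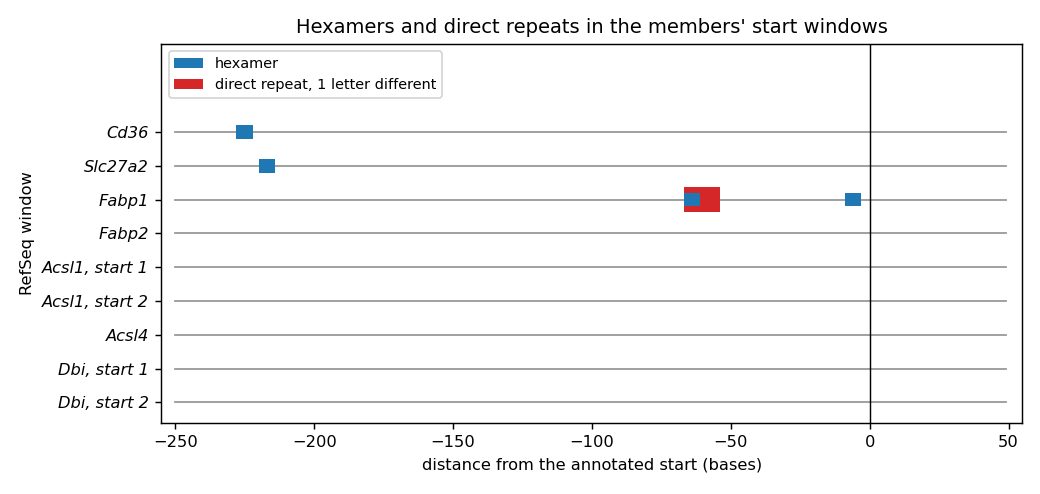
Position of hexamers (blue) and of the repeat with 1 letter different (red) in the 9 RefSeq windows, as distance in bases from the annotated start at 0; each grey line is a window. The Fabp1 window is the one with a repeat, 67 to 55 bases before the start, and 6 windows hold neither.

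Each value below is a deposited MAS5 signal, the brightness of a probe set on a linear scale, with the control array first, then c9,t11-CLA, then t10,c12-CLA. Signals at or below 490.3, the median of all signals on the 3 arrays, were not taken as measured. Of the 12 probe sets, 7 lay above this floor on each array, 1 for each of 7 genes, while 2 crossed it and 3 stayed at or below it throughout. The arrays had medians of 457 to 524 and 2%-trimmed means of 1501. The ratio of 3′ to 5′ signal, which reflects RNA integrity, was 1.40, 1.89 and 1.35 for beta-actin and 1.06, 0.98 and 0.78 for Gapdh, so the c9,t11-CLA array had the highest beta-actin ratio. Its part in the differences below was not tested. In whole liver, fewer cells of a type and less RNA per cell cannot be told apart.

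**Figure D2:**
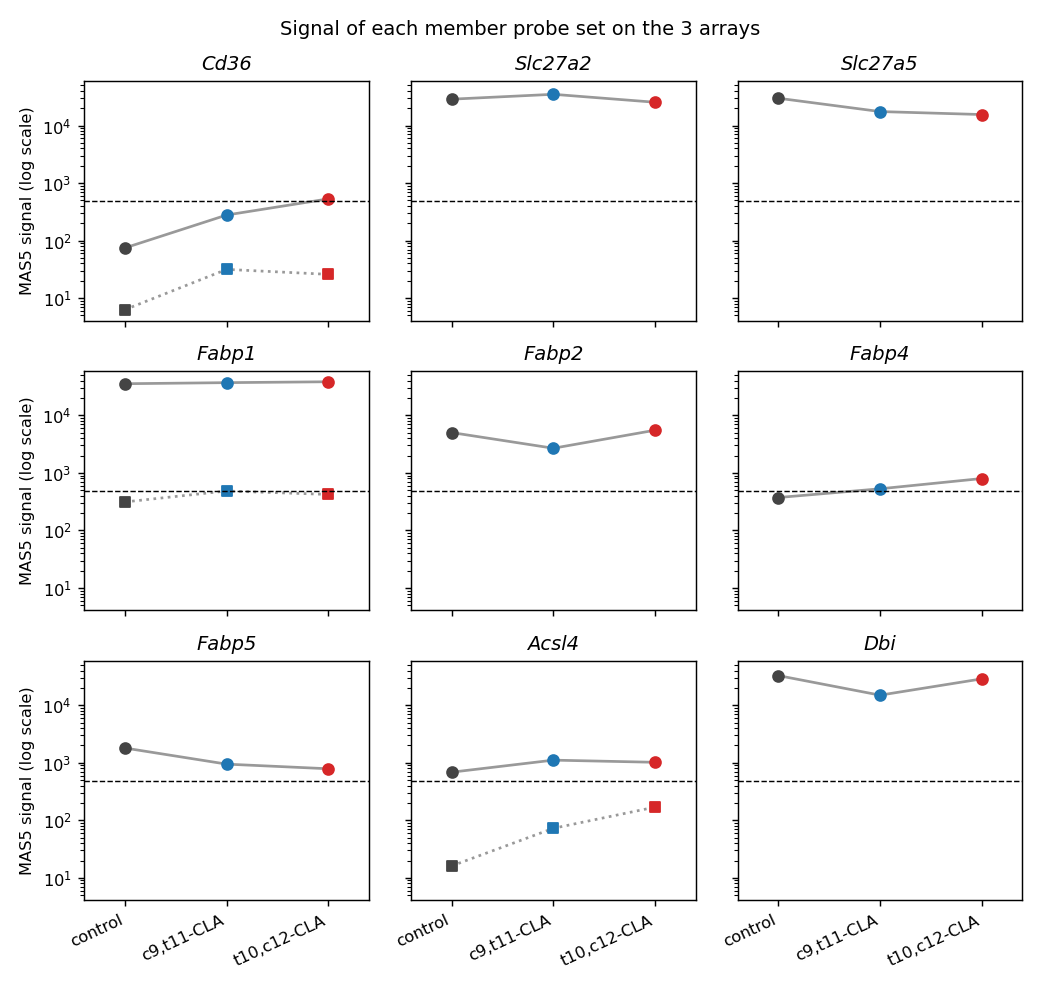
MAS5 signal on a log axis for each probe set of the 9 genes on the control (grey), c9,t11-CLA (blue) and t10,c12-CLA (red) arrays, 1 array each; squares joined by dotted lines are a gene's second probe set and the dashed line is the floor of 490.3. Dbi and Fabp2 are lowest on c9,t11-CLA, Slc27a5 and Fabp5 are highest on control, and the Fabp1 probe set above the floor is nearly level.

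Uptake came first in the pathway. Cd36, a scavenger receptor that takes up fatty acids and oxidised lipoproteins, gave signals of 74.6, 278.3 and 530.9. Only the t10,c12-CLA value passed the floor, so the signal there was higher than on either of the other arrays by at least 1.08-fold. The second Cd36 probe set, whose identifier marks it as incomplete in design, stood at 6.3, 31.6 and 25.9. Neither probe set was measurable on the control or c9,t11-CLA array, so Cd36 has no fold between these diets.

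Slc27a2 and Slc27a5 both move fatty acids and attach coenzyme A to them, Slc27a2 to very long chains and Slc27a5 also to bile acids. Slc27a2 gave 28677.6, 34866.0 and 25372.2. These are log2 differences from control of 0.28 on c9,t11-CLA and -0.18 on t10,c12-CLA. Slc27a5 gave 29789.7, 17478.3 and 15510.3 and was lower on both CLA arrays, 1.70-fold on c9,t11-CLA and 1.92-fold on t10,c12-CLA. Its rank among the 12488 signals of an array, which does not depend on scaling by a constant, moved from 181 on control to 341 and 393. Both differences use the same control array.

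Fabp1, the main fatty acid binding protein of hepatocytes, gave 35457.6, 37010.4 and 38347.2. The log2 differences from control were 0.06 and 0.11, as deposited the smallest sizes in both comparisons among the 7 probe sets above the floor throughout. Slc27a2 was smaller with equal array medians on c9,t11-CLA, at 0.09. After quantile normalization on t10,c12-CLA, Slc27a2 at -0.08, Fabp2 at 0.12 and Dbi at -0.13 were smaller in size than Fabp1 at 0.18. With equal medians of probe sets with a mean above 10000, Slc27a2 at -0.12 and Dbi at -0.13 were smaller there than Fabp1 at 0.17. The sign of the c9,t11-CLA difference of Fabp1 is not settled, since it was -0.13 with equal array medians and -0.15 after quantile normalization. The second probe set of Fabp1 stayed below the floor at 312.9, 484.8 and 422.3. By its bright probe set Fabp1 was short of a 2-fold difference on both CLA arrays.

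Fabp2, named for the intestine where it is abundant, gave 5022.1, 2682.0 and 5518.1. It was 1.87-fold lower on c9,t11-CLA than on control, a log2 difference of -0.90, and stood at 0.14 on t10,c12-CLA. Its rank went from 1112 on control to 1895 on c9,t11-CLA and 1033 on t10,c12-CLA. Of 8 markers of intestinal epithelium, 5 had a probe set, with summed signals of 5231, 5767 and 6434, and Vil1, Cdx2 and Lct were below the floor on each array. The brightest of them were Anpep, at 3813.1, 4602.6 and 5473.8, and Lgals4, at 1166.1, 793.1 and 792.4. Lgals4 was thus lower than control on both CLA arrays, with log2 differences of -0.56 and -0.56, and Anpep was higher on both. The part of such cells in the Fabp2 value was not tested.

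Fabp4 and Fabp5 are the binding proteins of adipocytes and of epidermis, and macrophages express both. Fabp4 gave 373.3, 529.4 and 798.4, so that c9,t11-CLA exceeded control by at least 1.08-fold and t10,c12-CLA exceeded it by at least 1.63-fold. Fabp5 ran the other way, with 1801.2, 946.0 and 785.9. It was 1.90-fold lower on c9,t11-CLA and 2.29-fold lower on t10,c12-CLA, log2 differences of -0.93 and -1.20. On t10,c12-CLA 40 of the 5584 probe sets measured against control, Fabp5 included, had a difference as low.

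Cell types that express these binding proteins were followed by markers. All 10 macrophage markers had probe sets, 15 in all, whose signals summed to 54963, 53228 and 84466, highest on t10,c12-CLA. The brightest were C1qc, at 12400.3, 11141.0 and 23148.1, and C1qa, at 11330.0, 9776.9 and 15580.6. Cd14, at 1561.6, 2717.6 and 4494.9, had a log2 difference from control of 1.53 on t10,c12-CLA. Where both signals were measured, it was the one past 2-fold against control. A Csf1r probe set, at 1182.7, 342.6 and 1050.8, fell below the floor on c9,t11-CLA and was lower there than on control by at least 2.41-fold. The other Csf1r probe set went the opposite way, at 2341.8, 2940.9 and 4023.9, with a log2 difference from control of 0.33 on c9,t11-CLA. The Kupffer cell receptor Clec4f was highest on c9,t11-CLA instead, at 4017.7, 7190.5 and 5227.6, and the scavenger receptor Marco was below the floor throughout. For 6 of 9 adipocyte markers the sums were 26349, 18310 and 14378. Car3 made up most of them at 22420.0, 13566.0 and 10273.1, so the fall in the sums follows Car3. The median log2 difference from control of the 3 adipocyte probe sets measured was 0.21 on c9,t11-CLA and -0.82 on t10,c12-CLA. Lep followed at 2488.3, 2885.9 and 1414.1 by its brighter probe set, while Adipoq and Retn were below the floor on each array. Lipe was higher on both CLA arrays than on control, at 765.3, 1005.7 and 927.8. Cidec, a lipid droplet protein, gave 43.6, 38.8 and 905.4, at least 1.85-fold above control on t10,c12-CLA. For 7 of 8 epidermal markers the sums were 3115, 4255 and 3017, with Lor and Trp63 brightest and Krt5, Krt14 and Ivl below the floor throughout. For 8 of 9 endothelial markers they were 14166, 13896 and 17362. The brightest of these were Eng, at 9197.1, 7762.3 and 10706.8, and Cdh5, at 1079.6, 1761.6 and 1495.3. Pecam1 gave 181.7, 1019.7 and 894.2, below the floor on control, so at least 2.08-fold higher on c9,t11-CLA and 1.82-fold on t10,c12-CLA. For 7 of 8 hepatocyte markers the sums were 179315, 303277 and 168572, highest on c9,t11-CLA. Alb and Cps1 were brightest, with Alb at 28436.9, 101163.1 and 31244.3 and Cps1 at 57034.6, 89997.4 and 53137.9. Ttr, transthyretin, was lowest on c9,t11-CLA instead, at 17983.1, 9384.5 and 21644.9. The part of these cells in the Fabp4, Fabp5 and Cd36 values was not tested.

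Activation was represented by Acsl4, an acyl-CoA synthetase that prefers arachidonic acid. It gave 685.2, 1109.9 and 1017.8, with log2 differences from control of 0.70 and 0.57. It was the probe set with the largest positive difference in both comparisons with control among the 7. Its second probe set stayed below the floor at 16.1, 72.5 and 169.4.

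Dbi binds long-chain acyl-CoA and keeps it available for oxidation and lipid synthesis. It gave 32686.8, 14939.3 and 28667.7, so the c9,t11-CLA array stood apart from the other two. The signal was 2.19-fold lower on c9,t11-CLA than on control, a log2 difference of -1.13, and 1.14-fold lower on t10,c12-CLA. Its rank was 154 on control, 393 on c9,t11-CLA and 173 on t10,c12-CLA. Among 5480 probe sets measured on the c9,t11-CLA and control arrays, 102 had a difference as low, Dbi included. Among the 590 with a mean signal above 10000, Dbi's range of brightness, 24 were at least 2-fold lower, or 4.07%.

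Set against all probe sets, Dbi was the 1 of 7 measured member probe sets that was at least 2-fold lower on c9,t11-CLA than on control, where the share of all 5480 was 2.81%. None was at least 2-fold higher, beside 3.25% of all. The median log2 difference of the 7 was -0.77, with 3 above 0 and 4 below, against 0.03 for all. With the floor lowered to the 25th percentile of signals, which let in 9 probe sets, that median was 0.062, so its sign depends on the floor. On t10,c12-CLA against control, Fabp5 was the 1 of 7 that was at least 2-fold lower, beside 1.90% of 5584 probe sets, and none was 2-fold higher, beside 2.18%. The median was -0.18, again with 3 above 0, against -0.01 for all, and 0.11 with the lower floor. These are descriptions of the probe sets that passed the floor and not of the 12. As a technical yardstick, the spread of a single log2 difference, taken from pairs of probe sets of 1 gene, had an SD of 0.49 over 529 genes for c9,t11-CLA and 0.40 over 566 for t10,c12-CLA, each against control, and 0.50 over 553 between the isomers. It holds no variation between mice.

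**Figure D3:**
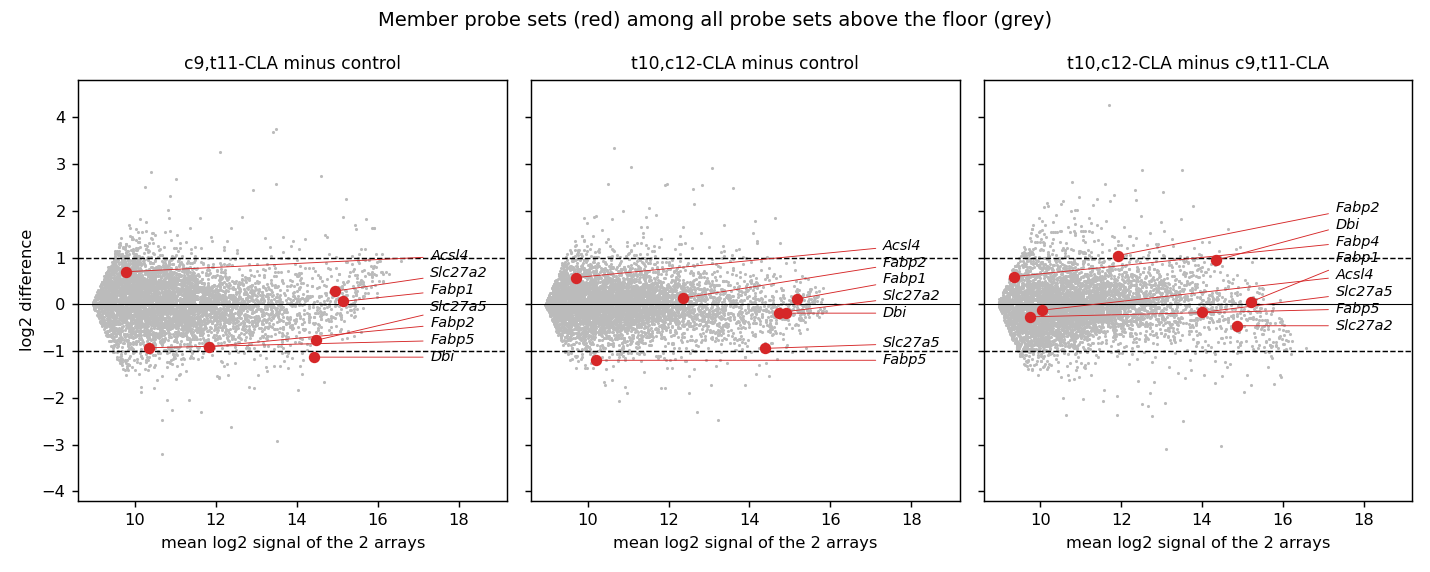
Log2 difference against mean log2 signal for probe sets measured in each comparison (grey), with the members in red and dashed lines at 2-fold; 1 array per diet, and the first 2 panels share the control array. Dbi lies past the lower line on c9,t11-CLA, Fabp5 on t10,c12-CLA, and Fabp2 past the upper line between the isomers.

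The isomers, given at equal dose for an equal time, made 1 pair. Fabp2 was 2.06-fold higher on t10,c12-CLA than on c9,t11-CLA, a log2 difference of 1.04, and was the 1 of 8 measured members past 2-fold, beside 3.47% of 5567 probe sets. None was 2-fold lower, beside 2.73%. Dbi, at 0.94, was 1.92-fold higher and just short of that size. Fabp4 stood at 0.59 and Slc27a2 at -0.46. The other four lay between -0.27 and 0.05, namely Fabp5 at -0.27, Slc27a5 at -0.17, Acsl4 at -0.12 and Fabp1 at 0.05. Without replicate arrays no interval can be put on these values, so small ones do not show that the isomers acted alike.

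The number of members past 2-fold depended on the scaling. With equal array medians, which moved the median difference of all probe sets to -0.15 for c9,t11-CLA against control, 3 of 7 were at least 2-fold lower, Dbi at -1.33, Fabp5 at -1.12 and Fabp2 at -1.10. Taken relative to that shifted median, Fabp5 stood at -0.98 and Fabp2 at -0.96. The share of all probe sets at least 2-fold higher was then 1.86% and lower 5.17%. For t10,c12-CLA against control these shares became 1.66% and 2.63%, and between the isomers 4.70% and 1.76%. Slc27a5 reached -1.03 on t10,c12-CLA under that scaling, which is -0.94 relative to the shifted median of all. Dbi reached 1.05 between the isomers, or 1.01 relative to that median. Fabp2 fell to 0.98 between the isomers after quantile normalization.

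**Figure D4:**
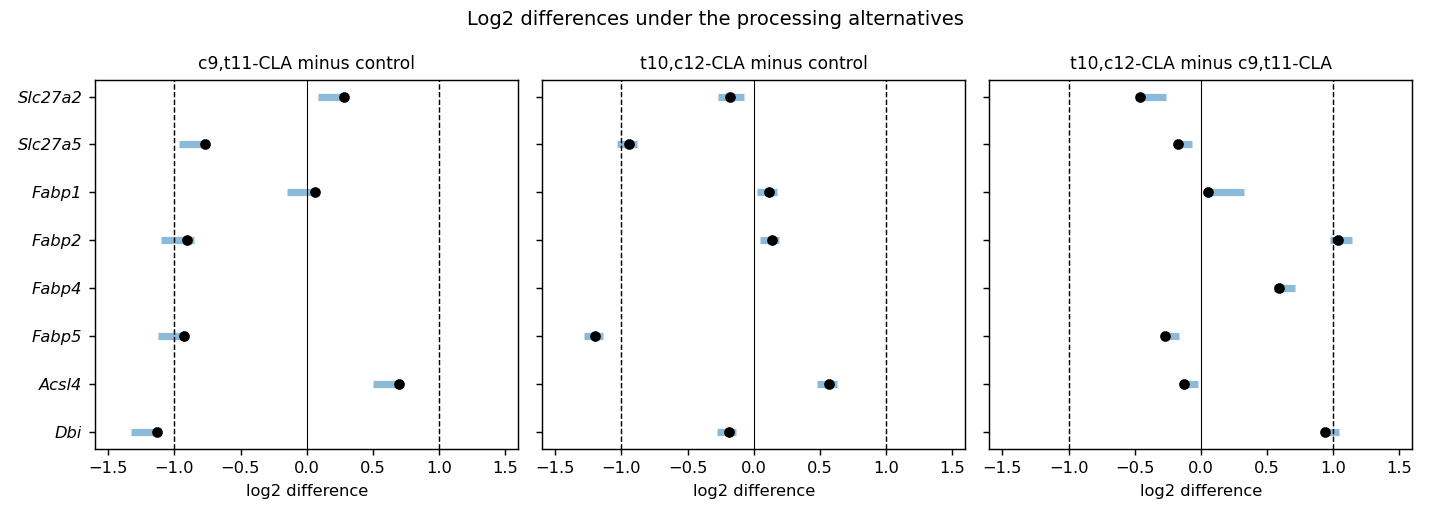
Log2 difference of each member probe set as deposited (black dot) and its range over the processing alternatives (blue bar), with dashed lines at 2-fold. The bar of Dbi stays past 2-fold on c9,t11-CLA and that of Fabp5 on t10,c12-CLA, while the Fabp1 bar crosses 0 on c9,t11-CLA.

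Related genes outside the 10 were counted from lists. Of all measured probe sets, 3.25% were 2-fold higher and 2.81% lower on c9,t11-CLA than on control. On t10,c12-CLA these shares were 2.18% and 1.90%. In lists of so few probe sets a count of 0 or 1 says little. Of other acyl-CoA synthetases, 4 of 12 had a probe set and only Acsl5 was measured on all arrays, at 7821.8, 5075.5 and 7546.9. Acsm2 gave 568.1, 226.0 and 198.3. Among other transport proteins and partners of uptake, 7 of 10 were on the array and 0 of 4 measured probe sets differed 2-fold on either CLA array from control. The brightest were Got2, at 3247.9, 3178.2 and 3483.4, and Lpl, lipoprotein lipase, at 2303.1, 3318.8 and 3751.8. This Got2 probe set is marked in its identifier as incomplete in design, and the other was below the floor at 265.7, 236.3 and 74.7. A second Lpl probe set had a log2 difference of -0.53 on c9,t11-CLA where the first had 0.53.

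Of other lipid-binding proteins, 9 of 15 were on the array, and 3 probe sets were measured against control. Scp2, sterol carrier protein 2, which also binds acyl-CoA, gave 46286.1, 14675.6 and 44970.9. Like Dbi it was lowest on c9,t11-CLA, with a log2 difference from control of -1.66, but its second probe set, which may cross-hybridise, stood at -0.47. Between the isomers those probe sets stood at 1.62 and 0.26. Of the acyl-CoA thioesterases, which reverse activation, 1 of 5 measured probe sets was 2-fold lower on c9,t11-CLA, beside 2.81% of all. It was that of Acot1, at 4243.0, 890.5 and 4386.6, and none of 6 differed 2-fold on t10,c12-CLA. Baat, which conjugates the bile acyl-CoA that Slc27a5 makes, gave 10846.5, 8616.3 and 8884.4.

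Among the nuclear receptors that regulate these genes, 0 of 8 measured probe sets were 2-fold different on c9,t11-CLA. On t10,c12-CLA 1 of 8 was higher, beside 2.18% of all. That was Rxra, the partner of PPARA, at 1374.5, 2680.6 and 2814.0, a log2 difference of 1.03, with its second probe set at 0.49. Ppara gave 8258.8, 6812.3 and 9218.5. Nr1i2, the pregnane X receptor, gave 172.4, 1449.9 and 841.0, higher than control by at least 2.96-fold on c9,t11-CLA and at least 1.72-fold on t10,c12-CLA. Nr1h3, at 5894.0, 3916.2 and 4837.3, and every probe set of Nr1i3 were lower on both CLA arrays than on control. The part of these receptors in the member values was not tested. Pparg was below the floor throughout.

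For the members past 2-fold, the probe sets nearest in their pair of log2 differences from control were sought among 4720 others above the floor on all 3 arrays. For Dbi they were those of Shkbp1, Lclat1 and Rsl1d1, and 51 probe sets lay within 0.25 log2 units. For Fabp2 they were Tsc22d4, Ptprd and Ctsl, with 77 within that distance, and for Fabp5 Adsl, Derl2 and Hpgd, with 18. Likeness over 3 arrays is a weak measure, and nothing is read from it about shared control.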

How the data were processed

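Liver RNA of apolipoprotein E-deficient mice on 3 diets was measured on 3 Affymetrix arrays, 1 per diet, from 8 µg of total RNA per the labels' protocols. The deposited values were MAS5 signals, an intensity per probe set on a linear scale, per the submitters' processing notes. No version was given in the sources used here. The 2%-trimmed means of 1501 were computed from the deposited intensity values, which were not rescaled.

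Of 12488 probe sets, 66 served as array controls. A single symbol was paired with 10833, several with 396 and none in the annotation used with 1193. Symbols were updated through the Entrez identifier in a RefSeq table of GRCm38.p6. The floor was the pooled median signal, 490.3. A fold against an array below the floor is a lower bound, the brighter signal over the floor. A size of 2-fold was used for counts. There were no replicates, so no test was made. The text names every member and, by rule, the genes of each list of related genes past 2-fold or else its 2 brightest, and the 2 brightest of each marker list. Further list genes were picked with their values in view. The members and lists were chosen with earlier results of these data known. Protein sequences were not analysed here. Python 3.11.15, numpy 2.4.6, pandas 2.3.3 and matplotlib 3.10.9 were used.

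The alternatives were equal medians, quantile normalization, floors at the 25th and 75th percentile, a pseudocount of 50, means over probe sets of a gene, leaving out marked probe sets and, added after seeing the data, equal medians of probe sets with a mean above 10000. The repeat with 1 letter different was also added then.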

Additional observations from a re-analysis of the deposited data

How the results depend on the processing

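With 1 array per diet, the count of members past 2-fold rested on few probe sets. For c9,t11-CLA against control it was 1 as deposited, 3 with equal array medians and 2, Dbi and Fabp5, after quantile normalization, where 2.64% of all probe sets were 2-fold higher and 3.07% lower. For t10,c12-CLA against control it was 1 as deposited, 2 with equal medians and 2 after lowering the floor to the 25th percentile, where Fabp4 joined and the shares of all probe sets were 5.23% higher and 3.81% lower. It was 0 after raising it to the 75th percentile, which left out Fabp5, beside 1.83% and 1.73%. Between the isomers it was 1 as deposited, 2 with equal medians and 0 after quantile normalization, beside 3.74% higher and 2.36% lower. The median for c9,t11-CLA against control moved from -0.77 to 0.062 with the lower floor, where 9 probe sets were measured in place of 7. That for t10,c12-CLA lay between -0.27 and 0.11 and that between the isomers from -0.04 to 0.14, so that both crossed 0. The log2 differences of single probe sets had 88 values under the alternatives that can change them (scaling and pseudocount). Each moved by less than the spread between probe sets of a gene, but for most of them this was fixed in advance. Equal medians, of all or of bright probe sets, shift a whole comparison by a single constant, here smaller than that spread. A pseudocount far below the floor can hardly move a ratio. Only quantile normalization could have moved a probe set further, so little is read from this about single differences. Dbi stayed between -1.33 and -1.10 on c9,t11-CLA and Fabp5 between -1.29 and -1.14 on t10,c12-CLA. A pseudocount and scaling on bright probe sets changed no count. Means over probe sets and leaving out marked probe sets could not change any count. No gene had more than 1 measured probe set, and the marked Cd36 probe set was below the floor throughout. No paired analysis was possible because each diet had 1 array. Cd36 has only the bound of at least 1.08-fold on t10,c12-CLA for its low signal, and Acsl1 no value for lack of a named probe set.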
